A study of Mus musculus with 2 samples.

Results

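Splicing regulators of mouse gastrocnemius, a fast calf muscle, were described from long transcript reads. The genes were the annotated ones whose symbols begin with Srsf, Hnrnp, Mbnl, Celf, Rbfox, Ptbp or Tra2, or with Rbm and a digit, with pseudogenes whose names hold -ps left out. Of 15508 annotated genes with at least 1 read, 75 met this rule, all of them protein-coding, with 73 seen in each library and 71 in both. No expression value entered the choice. The study sequenced 2 long-read RNA libraries of male B6CASTF1/J mice, an F1 hybrid strain, at 36 days, each made from 2 µg of total RNA with Lexogen and Ambion spike-in RNAs. Replicate 1 came from the animal numbered 03 and replicate 2 from the animal numbered 04, while both labels point to the same donor entry. There was 1 group and no treated or control condition, so p-values given here compare these 2 libraries only and cover counting error only. They do not measure the spread between animals. They also treat reads as independent molecules, which reads need not be. The 2 parental alleles are not told apart in the counts.

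Splicing regulators bind short motifs in pre-mRNA and help to set which exons and introns stay in the messenger. SR proteins (Srsf genes) mostly promote the use of exons through exonic enhancers, hnRNP proteins often repress it, and the MBNL, CELF and RBFOX families switch exons during muscle development. Many of these proteins also act on their own transcripts: an exon or kept intron with an early stop codon makes a form that nonsense-mediated decay can degrade, which lowers the protein output. Such an exon is called a poison exon.

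The libraries held 1036455 and 1374068 reads in annotated mouse genes, in replicates 1 and 2. The named genes took 2971 and 3494 of these reads, 0.287% and 0.254%, in 564 and 558 transcript models. A long read is a single count whatever the length of its transcript. Levels in CPM (the read count scaled by the total of reads in annotated genes) were thus compared between genes without division by length. Models that cover only part of a transcript or lack its junctions count too, with 22.6% and 52.5% of the named genes' reads. Where a gene had no read, its level could still be as high as 3 reads, which is 2.89 CPM in the first library and 2.18 CPM in the second, for counting error only. The 6 skeletal muscle markers summed to 324435 and 252240 CPM, and 1 of them, Atp2a1, had 100411 and 26014 CPM. Ckm and Acta1 were also lower in replicate 2, while Myh4, Mylpf and Tnnc2 were higher. The median log2 ratio of replicate 2 over replicate 1 was 0.03 for the 6 markers and −0.28 for all genes tested. Markers of other cell types differed between the libraries: 5 matrix genes summed to 3219 and 818 CPM, 4 Schwann cell genes to 1470 and 512 CPM, 4 smooth muscle genes to 225 and 119 CPM, and 4 adipocyte genes to 140 and 379 CPM. The 4 endothelial markers summed to 30.9 and 29.8 CPM, the 4 immune markers to 93.6 and 62.6 CPM with Ptprc at 0, the 4 globin genes to 270 and 357 CPM, and the 4 neuronal markers, of which Rbfox3 is one of the genes described here, to 1.93 and 2.91 CPM with Snap25 at 0. Their part in the results below was not tested, and in whole muscle fewer cells of a type cannot be told apart from less RNA per cell.

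A few genes carried a large share of the reads. The 5 highest held 43.4% and 50.7% of the reads of all 75, 28 genes had a mean under 10 CPM, and the median gene stood at 15.7 CPM. Families differed in the same way: the 20 Hnrnp genes summed to 1193 and 1413 CPM, the 33 Rbm genes to 997 and 738 CPM, the 10 Srsf genes to 246 and 193 CPM, and the 2 Mbnl genes to 299 and 111 CPM. The remaining families were low, with 55.0 and 31.3 CPM for 2 Celf genes, 51.1 and 36.4 CPM for 3 Rbfox genes, 20.3 and 12.4 CPM for 3 Ptbp genes, and 5.79 and 7.28 CPM for the 2 Tra2 genes. Of the protein-coding genes with matching names, 12 had no read in either library: Celf3, Celf4, Celf5, Celf6, Mbnl3, Rbm11, Rbm12b2, Rbm31y, Rbm44, Rbm47, Rbm8a2 and Srsf12. Celf3, Celf4 and Celf5 are known mainly from the nervous system. The antisense genes Rbm3os and Rbm46os had no read either.

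**Figure D1:**
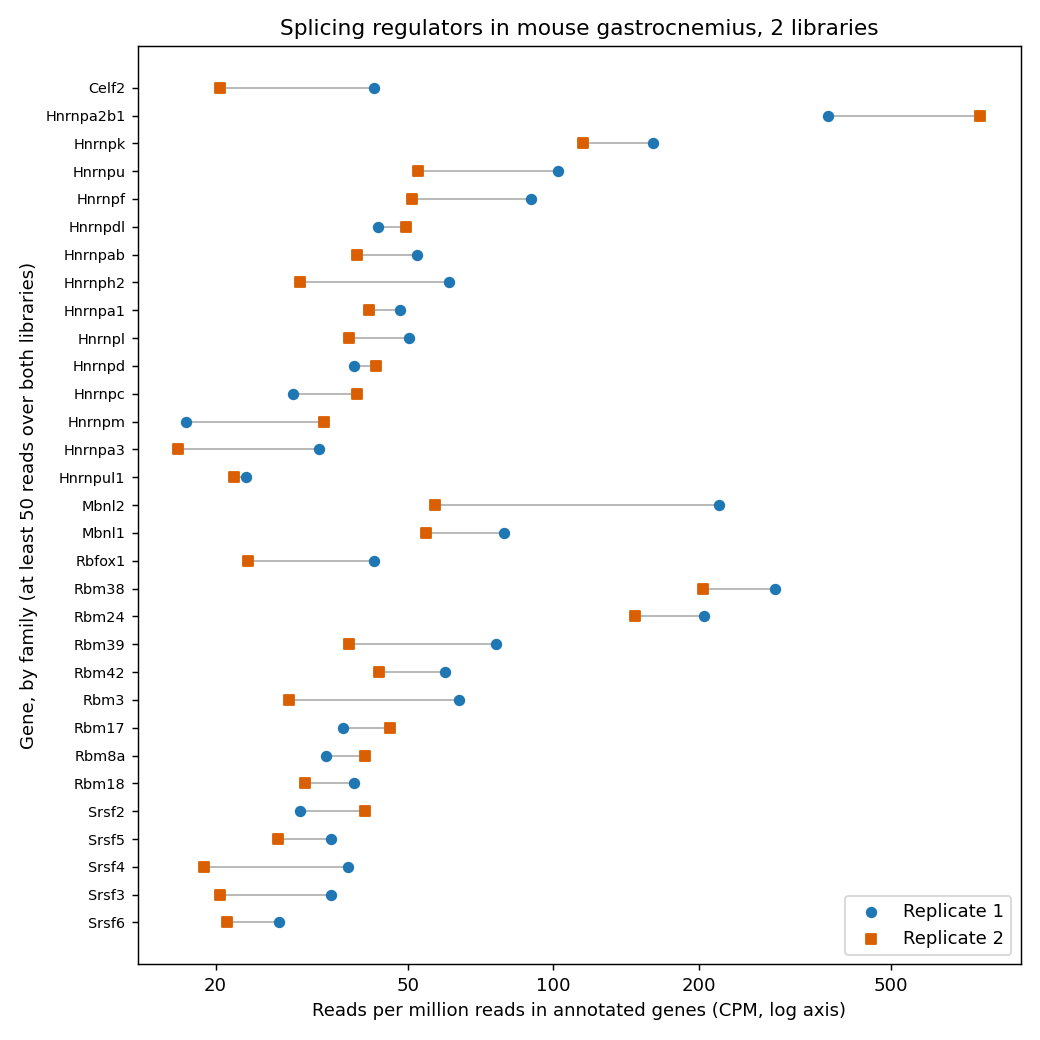
Level of the 31 genes with at least 50 reads over both libraries, in CPM on a log axis, with replicate 1 as circles and replicate 2 as squares, ordered by family and mean. Over all models Hnrnpa2b1 is the highest in both libraries, with 370 and 766 CPM, and Mbnl2 spans from 220 CPM in replicate 1 to 56.8 CPM in replicate 2. Counting only annotated models and those with a new combination or junction, Hnrnpa2b1 had 162 and 126 reads, below Rbm38 with 278 and 229.

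The SR proteins were all present at modest levels, apart from Srsf12. Srsf2, which acts in both splicing and transcription, had 31 and 56 reads (29.9 and 40.8 CPM, mean 35.3 ± 7.67, SD, n = 2). Srsf5 had 36 and 37 reads (34.7 and 26.9 CPM), and Srsf4 had 39 and 26 (37.6 and 18.9 CPM). The order of these genes was not the same in the 2 libraries, and they did not differ beyond their spread. Srsf3 had 36 and 28 reads, Srsf6 28 and 29, Srsf11 26 and 17, Srsf1 14 and 17, and Srsf7 11 and 11. Srsf1, the founding member of the family, was thus among its lower genes here. Tra2b, an SR-like activator, had 6 reads in each library, and its paralogue Tra2a had 0 and 4.

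Among the hnRNPs, Hnrnpa2b1, a core protein of hnRNP particles, led with 384 and 1052 reads (370 and 766 CPM, mean 568 ± 279, SD, n = 2). Hnrnpk, a poly(C)-binding protein, followed with 167 and 158 reads (138 ± 32.6 CPM), and Hnrnpu, a nuclear scaffold protein, with 106 and 72 (77.3 ± 35.3 CPM). The order of these 3 genes was the same in both libraries. Hnrnpf had 93 and 70 reads, Hnrnph2 63 and 41, Hnrnpdl 45 and 68, Hnrnpa1 50 and 57, Hnrnpd 40 and 59, and Hnrnph1 11 and 24.

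Among regulators with known roles in muscle, levels ran from high for Rbm38, Rbm24 and Mbnl2 to low for Celf1 and Rbfox2. Rbm38, which binds RNA during myogenic differentiation, had 298 and 280 reads (288 and 204 CPM, mean 246 ± 59.2, SD, n = 2). Rbm24, a muscle splicing factor needed for the sarcomere, had 213 and 203 reads (206 and 148 CPM, mean 177 ± 40.9). Rbm38 and Rbm24 are paralogues, and Rbm38 was the higher in both libraries. Mbnl2 had 228 and 78 reads (220 and 56.8 CPM) and Mbnl1, the family member lost to toxic CUG repeats in myotonic dystrophy, had 82 and 75 (79.1 and 54.6 CPM). Over all models their levels are far apart in replicate 1 and nearly level in replicate 2. Counting only annotated models and those with a new combination or junction, Mbnl2 had 203 and 65 reads and Mbnl1 42 and 25. Mbnl2 was then the higher in both libraries. Celf2 had 44 and 28 reads (31.4 ± 15.6 CPM) and Celf1, the CELF protein raised in myotonic dystrophy, had 13 and 15 (11.7 ± 1.15 CPM). Rbfox1 had 44 and 32 reads (32.9 ± 13.6 CPM), Rbfox2 had 9 and 15 (9.80 ± 1.58 CPM), and Rbfox3, known as the neuronal nuclear antigen NeuN, had 0 and 3. Rbm20, which controls titin splicing, had 27 and 22 reads (26.1 and 16 CPM).

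The general repressor Ptbp1 had 10 reads in each library, and Ptbp2, best known from neurons, had 9 and 6. Ptbp3 had 2 and 1. Among the remaining Rbm genes, Rbm39, a cofactor of U2AF, had 79 and 52 reads (76.2 and 37.8 CPM) and the cold-inducible Rbm3 had 66 and 39 (63.7 and 28.4 CPM). Rbm5, a regulator of apoptosis genes' splicing, had 20 and 13. Of the 75 genes, 14 had fewer than 10 reads over both libraries.

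Genes with at least 10 reads in sum were compared between the libraries by a two-sided exact conditional binomial test with Benjamini-Hochberg adjustment over all genes, and a gene was called when it differed 2-fold or more with an adjusted p below 0.05. Of the 61 named genes tested, 8 were called, of which 6 had the higher level in replicate 1 and 2 in replicate 2. Over all 8339 genes tested the share called was 17.5%, made up of 12% with the higher level in replicate 1 and 5.53% in replicate 2, so the share of 13.1% among the named genes was not above that background. The median log2 ratio of replicate 2 over replicate 1 was −0.41 for the named genes and −0.28 for all genes. Under edgeR's TMM factors the median of all genes moved to 0.01, and 5 named genes were called: Hnrnpa2b1, Hnrnpul2 and Hnrnpm in favour of replicate 2, and Mbnl2 and Hnrnpr in favour of replicate 1.

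Mbnl2 was well apart, with 220 CPM in replicate 1 against 56.8 CPM in replicate 2, a log2 ratio of −1.95 (adjusted p = 4.63e-27, exact binomial test). Its log2 ratio stayed between −1.99 and −1.66 under TMM, without genomic models, and when only annotated models and those with a new combination or a new junction were counted (full models). The other genes called higher in replicate 1 were Hnrnpr (24 and 10 reads, log2 ratio −1.63), Rbm3 (−1.16), Celf2 (−1.05), Hnrnph2 (−1.02) and Rbm39 (−1.01), with exact adjusted p from 5.20e-04 (Rbm3) to 0.0139 (Celf2). Under TMM the ratios of Rbm3, Celf2, Hnrnph2 and Rbm39 fell under 2-fold, at −0.87, −0.76, −0.73 and −0.72. Calls of these 4 genes were lost under TMM, and those of Mbnl2 and Hnrnpr were kept. With full models alone Rbm3, Celf2 and Hnrnph2 fell just under 2-fold, at −0.98, −0.97 and −0.88, with exact adjusted p of 0.00562, 0.0439 and 0.0136.

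The 2 genes called higher in replicate 2 rested on partial models. Hnrnpa2b1 had a log2 ratio of 1.05 (adjusted p = 2.05e-35, exact binomial test), and 110 and 560 of its reads were in a single incomplete model of 2 exons and 578 bases. With full models alone it had 162 and 126 reads and the direction turned, with a log2 ratio of −0.59. Hnrnpul2, a relative of Hnrnpu, had 1 and 31 reads, a 23.4-fold ratio with an exact 95% interval of 3.90 to 953. Of its reads in replicate 2, 30 were in a single-exon incomplete model of 620 bases. Over all named genes, incomplete and genomic models (alignments that cover part of a transcript or lack its junctions) held 22.6% of reads in replicate 1 and 52.5% in replicate 2, against 14.6% and 24.5% for all protein-coding genes. Without Hnrnpa2b1 the shares were 17.4% and 37.2%.

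**Figure D2:**
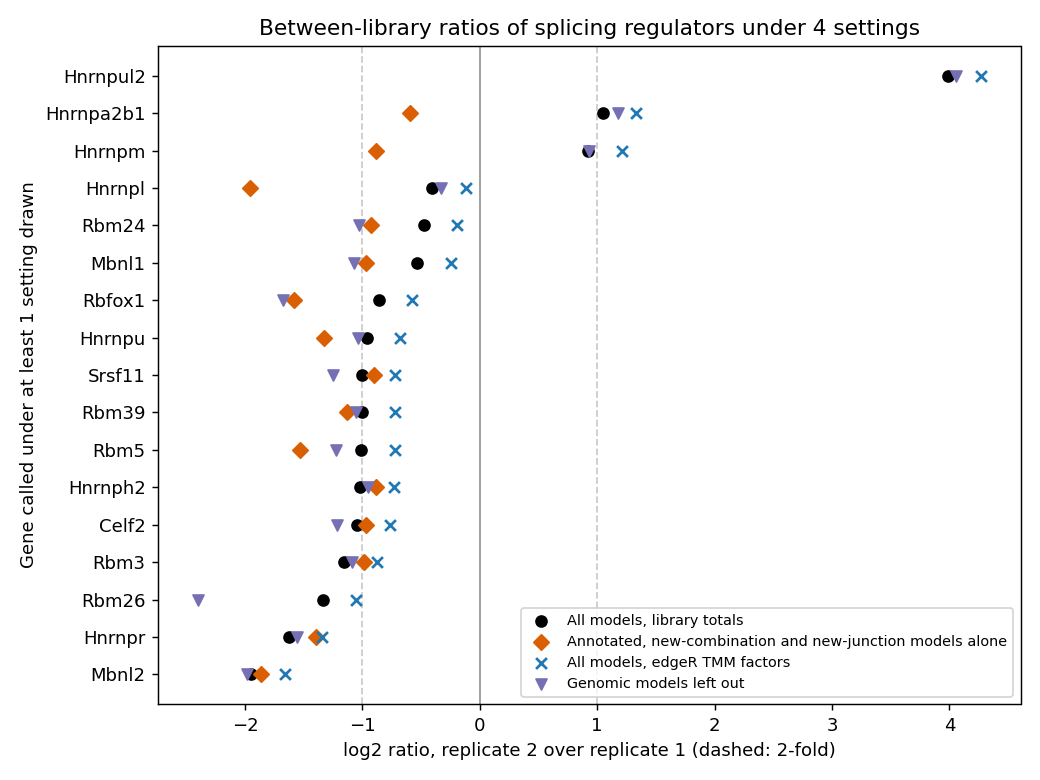
Log2 ratio of replicate 2 over replicate 1 for the 17 genes called under at least 1 of 4 settings, with each setting as its own symbol and 2-fold marked by dashed lines. Hnrnpa2b1 and Hnrnpm cross 0 when partial models are left out, while Mbnl2 and Hnrnpr stay past 2-fold under each setting drawn.

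Each model was next set against the coding transcripts of its gene. A model counted as holding extra or retained sequence when it was annotated as a non-coding form, when it kept a whole intron of the coding transcripts, or when it had an internal exon outside all coding transcripts. Such models held 257 reads of the named genes in replicate 1 and 215 in replicate 2, which is 8.65% (Wilson 95% interval 7.69 to 9.72) and 6.15% (5.40 to 7.00). For all protein-coding genes the shares were 2.74% and 3.45%. Annotated nonsense-mediated decay transcripts alone made up 1.85% and 1.2% of the named genes' reads, against 0.102% and 0.0963% for all protein-coding genes. Because the most abundant muscle genes dominate pooled reads, shares were also taken gene by gene. The 31 named genes with at least 50 reads had a median share of 5.26%, and 10 of them (32.3%) reached 10%. The 3612 protein-coding genes at the same depth had a median of 1.15%, and 10.2% of them reached 10%. With the genes above the highest named gene left out, 3449 genes gave 1.19% and 10.5%. The pooled shares of these 3449 genes were 4.36% and 3.98% in replicates 1 and 2, beside 8.60% and 5.86% for the 31 named genes. The difference from the named genes was thus smaller than over all protein-coding genes. These are descriptions with no test.

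The kinds of model differed. Of the extra or retained reads, 102 and 60 had a premature stop in their reading frame, 43 and 59 kept introns only outside the coding region, 37 and 26 were read without a premature stop, and 75 and 70 could not be read, for instance for want of the annotated start. A stop was called premature when it lay at least 50 bases before the last exon junction and was not an annotated coding stop. Over all named models whose frame could be read, 123 of 2087 reads in replicate 1 (5.89%, Wilson 95% interval 4.96 to 6.99) and 81 of 1473 in replicate 2 (5.50%, 4.45 to 6.78) had a premature stop. They came from 27 genes, led by Rbm38, Srsf5, Rbm24, Rbm39 and Rbm7. Of the 40 named genes with at least 20 readable reads, 10 (25%) had a premature stop in at least 10% of them, against 7.81% of 4596 protein-coding genes read the same way.

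**Figure D3:**
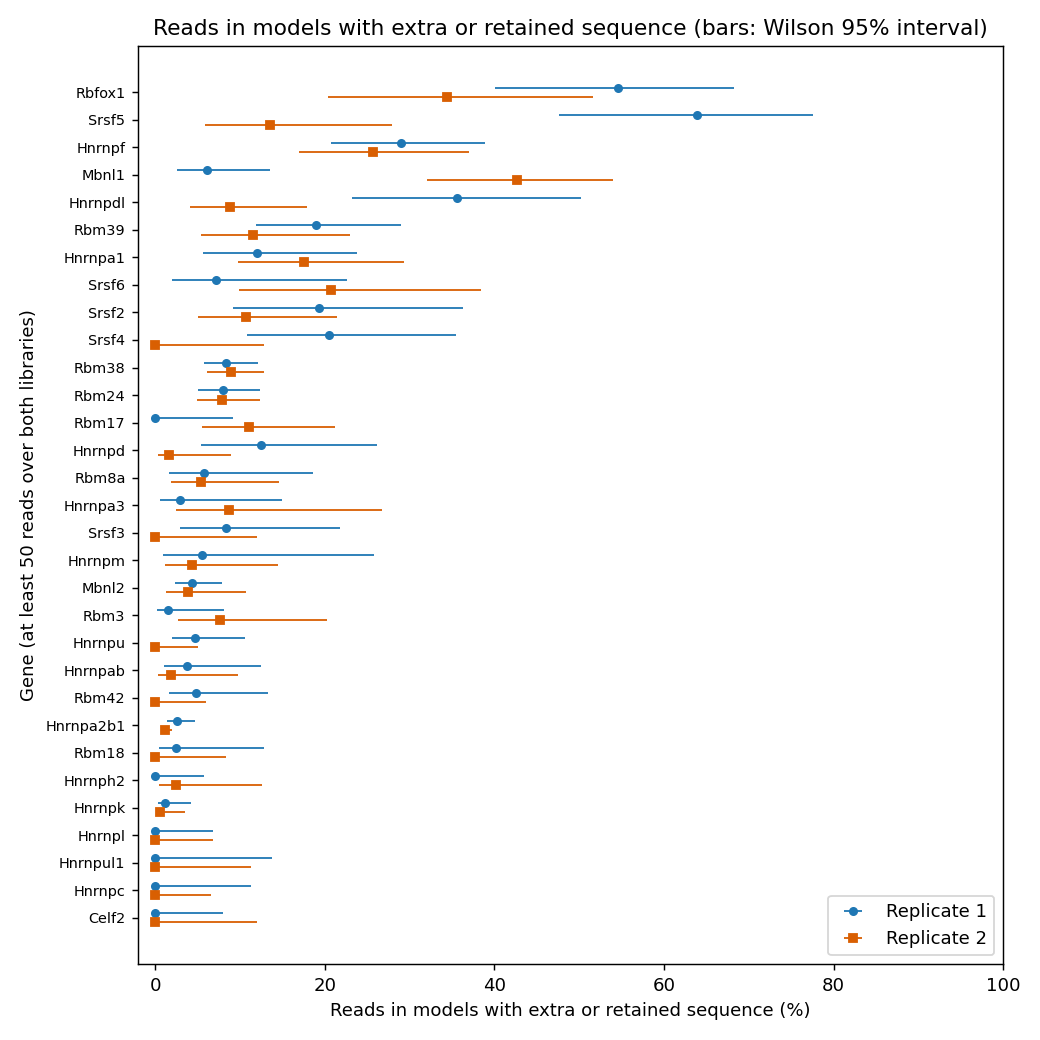
Share of reads in models with extra or retained sequence for the 31 genes with at least 50 reads, with Wilson 95% intervals for each library. Srsf5, Mbnl1 and Hnrnpdl have intervals that do not meet between the libraries, while Rbm38 and Rbm24 lie near 8% in both. Incomplete and genomic models held 35.6% and 60.3% of the Hnrnpdl reads in replicates 1 and 2. In replicate 2 they include 17 of its 68 reads in a single genomic model.

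Inserted sequences with a premature stop are shown for a selection of 10 SR and RBM genes, 1 for each gene, from the first inserted base to the stop codon, which is in capitals (GENCODE M21 transcripts, mm10). They show how soon after the insertion each frame closes. Read support ran from 18 and 5 reads (Srsf5) down to 1 and 0 (Srsf3). It was 2 and 2 for both Srsf7 and Srsf9, and 5 and 0 for Srsf4. In Srsf9 the leading form with the printed exon, 8 and 4 reads, could not be read.
Srsf5 intron: gtttgtTGA
Rbm24 exon: ggctcgtatacagttaagcTAA
Rbm7 exon: tatttgaggcagagagccataTAG
Srsf3 exon: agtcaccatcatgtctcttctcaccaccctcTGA
Rbm39 exon: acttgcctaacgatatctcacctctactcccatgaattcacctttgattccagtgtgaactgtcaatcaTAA
Srsf9 exon: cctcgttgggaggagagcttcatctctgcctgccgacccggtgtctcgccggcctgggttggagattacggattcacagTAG
Srsf7 intron: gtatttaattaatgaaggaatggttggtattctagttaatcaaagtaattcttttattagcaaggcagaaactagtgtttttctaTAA
Srsf4 exon: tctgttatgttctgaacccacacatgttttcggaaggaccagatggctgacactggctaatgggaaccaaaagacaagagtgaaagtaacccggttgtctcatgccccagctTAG
Srsf6 exon: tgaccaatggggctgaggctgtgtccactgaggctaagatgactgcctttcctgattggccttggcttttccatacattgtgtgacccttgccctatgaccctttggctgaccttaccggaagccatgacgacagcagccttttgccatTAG
Rbm38 intron: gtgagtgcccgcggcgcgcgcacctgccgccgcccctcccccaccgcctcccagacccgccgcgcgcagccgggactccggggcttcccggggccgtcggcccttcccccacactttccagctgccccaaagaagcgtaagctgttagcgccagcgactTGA

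Srsf5 kept an intron of 1229 bases between coding exons (chr12:80947866-80949094, + strand), and the frame closed 9 bases into it, as printed above. The intron was kept in 19 reads and spliced in 7 in replicate 1, which is 73.1% (Wilson 95% interval 53.9 to 86.3). In replicate 2 it was kept in 5 reads and spliced in 22, or 18.5% (8.18 to 36.7). The intervals do not overlap, while the level of Srsf5 differed by a log2 ratio of −0.37 (exact adjusted p = 0.524). With the further models included, 23 of 30 readable Srsf5 reads in replicate 1 and 5 of 27 in replicate 2 had a premature stop. The 7-exon chain with this intron had 11 and 4 reads and an annotated coding chain of 8 exons had 6 and 8. Of these 2 chains a different one led in each library. All annotated coding forms of Srsf5 together had 7 and 20 reads.

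Other SR genes held further exons. Srsf4 had 3 further exons of 207, 184 and 174 bases in a row (chr4:131884276-131886304, + strand, outer ends), listed in nonsense-mediated decay transcripts. They were seen in replicate 1 only, with 7 of 33 reads holding the first (21.2%, Wilson 95% interval 10.7 to 37.8) against 0 of 24 in replicate 2, which allows a share of up to 12.5%. Srsf6 used an exon of 268 bases (chr2:162932815-162933082, + strand) in 2 of 26 reads and 6 of 23. These shares, 7.69% (2.14 to 24.1) and 26.1% (12.5 to 46.5), overlap. Srsf3 held its exon of 456 bases (chr17:29039454-29039909, + strand) in 1 of 34 reads and 0 of 26. In Srsf7, an intron of 874 bases (chr17:80204388-80205261, − strand) was kept in 2 reads against 7 spliced, and in 2 against 9.

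Srsf9 and, further on, Rbm7 fall outside the rule for naming genes and were picked after their values were seen. In Srsf9 an exon of 358 bases (chr5:115328347-115328704, + strand) was held by 10 of 18 reads in replicate 1 and 6 of 9 in replicate 2, which is 55.6% (33.7 to 75.4) and 66.7% (35.4 to 87.9). A further exon of 90 bases (chr5:115331450-115331539, + strand) was in 11 of 20 and 4 of 8 reads. Both exons belong to annotated non-coding transcripts of the gene, and their intervals overlap widely between the libraries.

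Srsf2 carried its extra sequence outside the coding region. Introns of 686 and 269 bases were each kept in 5 reads in replicate 1 and 6 in replicate 2, against 23 and 42 reads that joined the outer ends of both. The kept share over that outer intron was 17.9% (7.88 to 35.6) and 12.5% (5.86 to 24.7).

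The muscle regulators Rbm24 and Rbm38 held such forms in both libraries. Rbm24 used an exon of 113 bases (chr13:46422276-46422388, + strand), listed only in non-coding transcripts of the gene, in 12 of 161 reads and 12 of 102. The stop codon ended 22 bases into the exon. Inclusion was 7.45% (4.31 to 12.6) and 11.8% (6.86 to 19.4), with overlapping intervals. The readable reads with a premature stop were 11 of 155 and 11 of 93. Rbm38 had 14 and 13 reads in an annotated nonsense-mediated decay form of 4 exons and 7 and 5 reads in a form that keeps an intron between coding exons (chr2:173022271-173022791, + strand, 521 bases). That intron was spliced in 250 and 202 reads, so the kept share was 2.72% (1.33 to 5.51) and 2.42% (1.04 to 5.53). The total share of extra or retained sequence in Rbm38 was 8.39% and 8.93%, and in Rbm24 7.98% and 7.88%, each within the other library's interval. The Rbm24 total includes 48 of 213 and 101 of 203 reads in genomic models, which differ between the libraries.

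Rbm39 held an exon of 73 bases (chr2:156178880-156178952, − strand) in 10 of 72 reads and 5 of 39, which is 13.9% (7.72 to 23.7) and 12.8% (5.60 to 26.7). Rbm7, a subunit of the nuclear exosome targeting complex, held an exon of 105 bases (chr9:48494283-48494387, − strand) in 5 of 13 and 6 of 16 reads. That length is a multiple of 3, and the frame still closed within the exon, as the printed sequence shows. The shares of 38.5% (17.7 to 64.5) and 37.5% (18.5 to 61.4) have overlapping intervals.

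**Figure D4:**
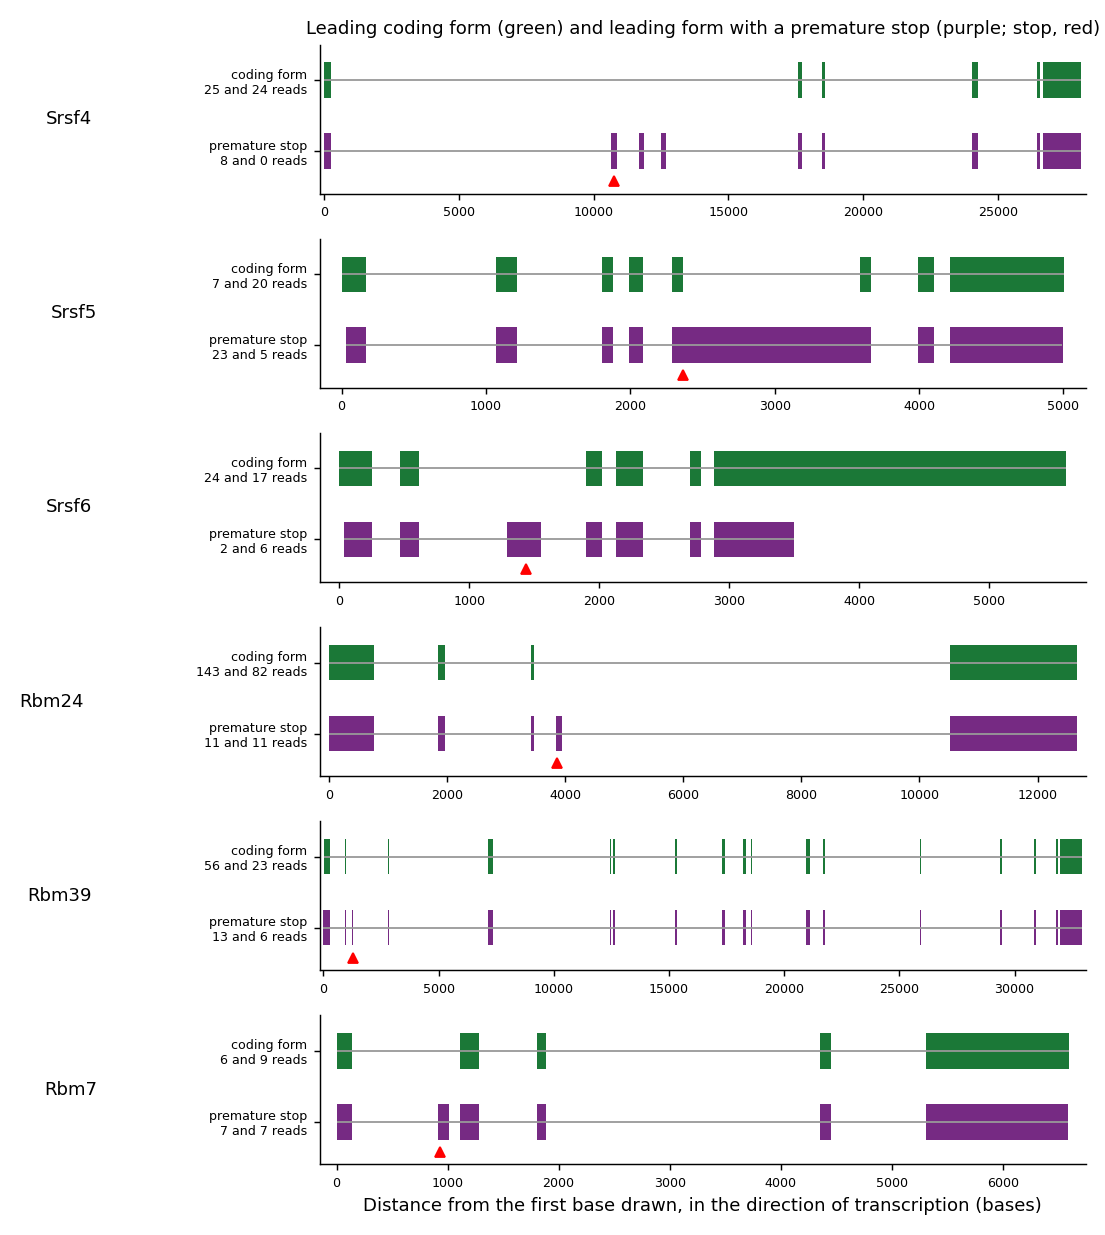
Exons of the leading coding form (green) and of the leading form with a premature stop (purple) for 6 genes, drawn to scale as distance from the first base in the direction of transcription, with the stop as a red triangle. The labels give the readable reads of all forms of each kind in replicates 1 and 2, with 23 and 5 reads with a premature stop for Srsf5.

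In 3 hnRNP genes the extra sequence left the coding stop in place. Hnrnpf, which had 27 and 18 such reads, kept an intron of 309 bases upstream of its coding region (chr6:117906840-117907148, + strand) that was spliced in 1 and 0 reads. With coding transcripts limited to those tagged basic or CCDS, its share was 0. Hnrnpdl had 10 and 2 reads in a nonsense-mediated decay form that reads through to its coding stop 126 bases before a later junction. Its alternative exon of 105 bases (chr5:100035635-100035739, − strand) was held by 13 of 30 reads and 8 of 39, which is 43.3% (27.4 to 60.8) and 20.5% (10.8 to 35.5). Hnrnpa1 used a further exon of 76 bases past its coding stop, and its extra or retained share was 12.0% (5.62 to 23.8) and 17.5% (9.82 to 29.4).

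Mbnl1 differed between the libraries, with 5 of 82 reads (6.10%, 2.63 to 13.5) against 32 of 75 (42.7%, 32.1 to 53.9). Of the reads in replicate 2, 24 were in a single-exon genomic model of 4257 bases that keeps the intron chr3:60625199-60626379 (+ strand) outside the coding region. No read of replicate 1 kept that intron, and 69 and 37 reads spliced it. Without genomic models the shares of Mbnl1 were 6.94% and 18.6%. The genes with the lowest shares were Celf2, Hnrnpc, Hnrnpl and Hnrnpul1, with 0 reads of extra or retained sequence in either library, and Hnrnpk, with 2 of 167 and 1 of 158. A count of 0 allows up to 6.82% in replicate 1 for Celf2 and 5.77% for Hnrnpl.

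Internal exons that some reads hold and others skip were counted in all members. There were 128 such exons with at least 20 informative reads, in 38 genes: 50 were held by over 90% of reads, 42 by under 10%, and 36, in 24 genes, lay between. Of these 36, 21 were coding exons (10 with a length that is a multiple of 3), 4 belonged to coding transcripts outside the coding region, 9 to non-coding transcripts and 2 were not annotated. The Wilson 95% intervals of the 2 libraries overlapped for 35 of the 36. The exception was a coding exon of Hnrnpa2b1, given below. Exons of other genes than Hnrnpa2b1 and Mbnl2 fall outside the 15 most covered ones and were picked after their values were seen.

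**Figure D5:**
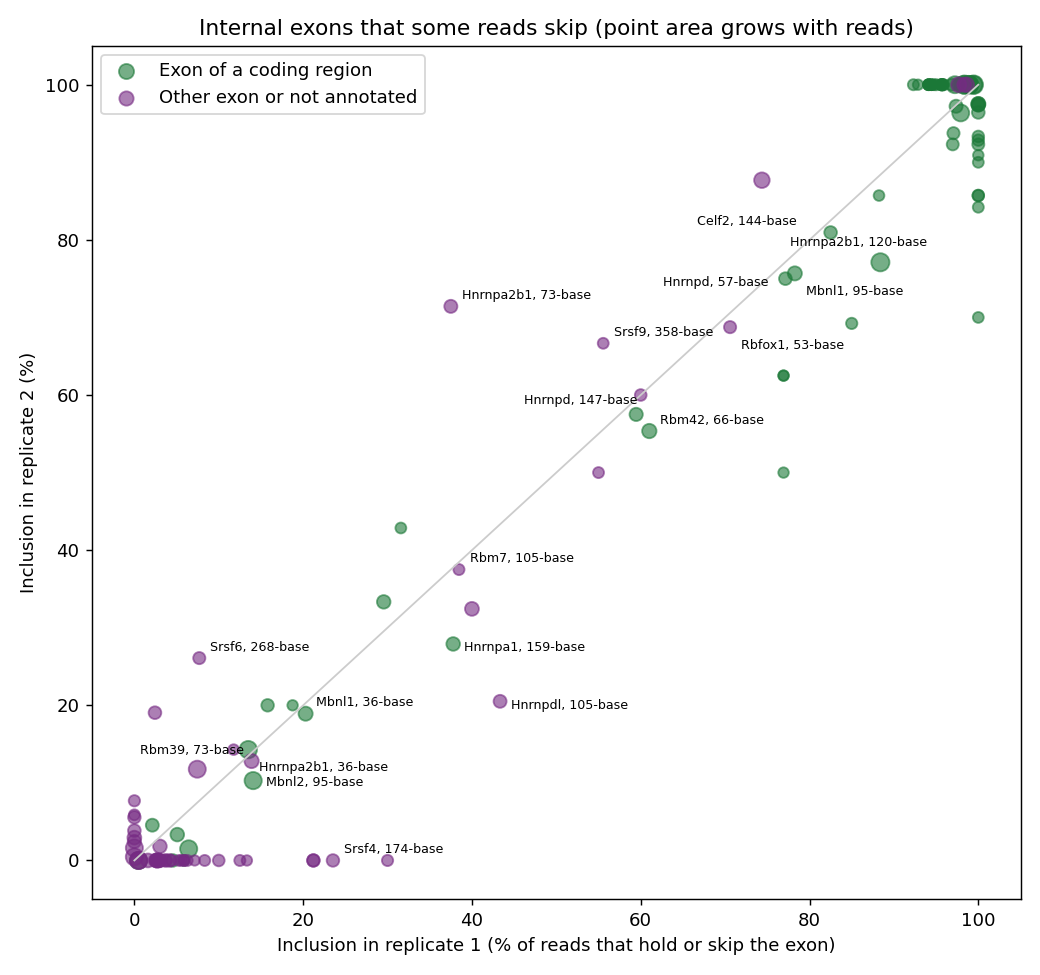
Inclusion of the 128 internal exons in replicate 1 (horizontal) and replicate 2 (vertical), with coding exons in green, other exons in purple and point area growing with the reads. Many labelled exons lie near the diagonal, such as the 36-base exon of Hnrnpa2b1 at 13.5% and 14.3% and the 144-base exon of Celf2 at 82.5% and 81%, while the 3 exons of Srsf4 lie on the axis at 0% in replicate 2.

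The MBNL genes share 3 alternative exons of 36, 54 and 95 bases, which are printed with 10 bases of each neighbouring exon in lower case and the exon itself in capitals, because those of 36 and 95 bases were used at different shares in the 2 paralogues.
Mbnl1, 54 bases: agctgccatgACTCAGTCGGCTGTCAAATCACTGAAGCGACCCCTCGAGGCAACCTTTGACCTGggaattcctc
Mbnl2, 54 bases: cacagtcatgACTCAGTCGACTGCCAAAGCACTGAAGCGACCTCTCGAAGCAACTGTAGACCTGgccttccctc
Mbnl1, 36 bases: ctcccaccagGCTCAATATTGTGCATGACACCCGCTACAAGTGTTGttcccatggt
Mbnl2, 36 bases: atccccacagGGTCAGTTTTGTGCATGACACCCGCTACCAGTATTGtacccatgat
Mbnl1, 95 bases: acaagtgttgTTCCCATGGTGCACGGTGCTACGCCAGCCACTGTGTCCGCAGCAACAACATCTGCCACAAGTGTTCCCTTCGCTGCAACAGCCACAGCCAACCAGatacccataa
Mbnl2, 95 bases: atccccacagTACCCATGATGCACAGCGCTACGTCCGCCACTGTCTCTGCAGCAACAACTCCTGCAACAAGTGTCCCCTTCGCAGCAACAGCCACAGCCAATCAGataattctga
The paralogues were identical at 46 of 54, 31 of 36 and 81 of 95 bases.

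The exon of 54 bases, which in MBNL proteins is known to promote entry to the nucleus and to be dropped in adult muscle, was mostly skipped. Mbnl1 (chr3:60614683-60614736, + strand) held it in 3 of 59 reads in replicate 1 and 1 of 30 in replicate 2. Mbnl2 (chr14:120395712-120395765, + strand) held it in 13 of 202 and 1 of 67, which is 6.44% (3.80 to 10.7) and 1.49% (0.264 to 7.98). Skipping was thus the rule in both genes and both libraries.

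For the 36-base exon the 2 genes parted. Mbnl1 (chr3:60621423-60621458) held it in 14 of 69 and 7 of 37 reads, which is 20.3% (12.5 to 31.2) and 18.9% (9.48 to 34.2), while Mbnl2 (chr14:120403336-120403371) held it in 1 of 206 and 0 of 68, the latter allowing up to 4.41%. The 95-base exon parted them further. Mbnl1 (chr3:60622146-60622240) held it in 54 of 69 and 28 of 37 reads, 78.3% (67.2 to 86.4) and 75.7% (59.9 to 86.6). Mbnl2 (chr14:120404638-120404732) held it in 29 of 206 and 7 of 68, 14.1% (9.98 to 19.5) and 10.3% (5.08 to 19.8). The intervals of the paralogues do not overlap in either library.

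The length of 95 bases is no multiple of 3. The leading chain of Mbnl2, a new combination of 7 exons with 156 and 52 reads, lacked all 3 of these exons and ended in a stop 128 bases past the last junction. Stops of this kind, which are neither an annotated coding stop nor premature, were found in 177 and 58 Mbnl2 reads, none of which held the 95-base exon. The leading form of Mbnl1 was also a new combination, with 8 exons and 16 and 8 reads. Of the 31 genes with at least 50 reads, 24 were led by an annotated chain and 7, by reads summed over both libraries, by one that is not annotated: Celf2, Hnrnpk, Hnrnpm, Mbnl1, Mbnl2, Rbfox1 and Srsf5. In Srsf5 the lead was 15 reads against 14 for an annotated coding chain.

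Rbfox1 chose between 2 exclusive exons, which are shown because only 1 of them was read. The exon is in capitals.
Rbfox1, 40 bases: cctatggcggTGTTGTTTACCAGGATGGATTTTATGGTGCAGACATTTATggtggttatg
Rbfox1, 43 bases: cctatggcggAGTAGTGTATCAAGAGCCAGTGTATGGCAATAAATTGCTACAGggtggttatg
The exon of 43 bases (chr16:7369801-7369843, + strand), known as the muscle form, was held by 34 of 34 reads in replicate 1 and 16 of 16 in replicate 2. The exon of 40 bases (chr16:7363865-7363904), known as the brain form, was held by 0 of 34 and 0 of 16, which allows up to 8.82% and 18.8%. Rbfox3, the neuronal relative, was near 0 as well.

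A further Rbfox1 exon of 53 bases, not annotated (chr16:7391988-7392040), was held by 24 of 34 and 11 of 16 reads, which is 70.6% (53.8 to 83.2) and 68.8% (44.4 to 85.8). Models with extra or retained sequence also held 24 and 11 reads of Rbfox1, 54.5% (40.1 to 68.3) and 34.4% (20.4 to 51.7) of its total. Without genomic models the shares were 54.5% and 64.7%, so the order of the libraries turned. Srsf5 had a higher share in replicate 1 and Mbnl1 in replicate 2. The leading chain, with 14 exons and 21 and 6 reads, held it. The length of 53 bases is no multiple of 3.

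The exon of 36 bases that separates the B1 from the A2 form of Hnrnpa2b1 (chr6:51467391-51467426, − strand) was held by 22 of 163 and 18 of 126 reads, which is 13.5% (9.08 to 19.6) and 14.3% (9.23 to 21.5). It is shown with its neighbours, the exon in capitals.
Hnrnpa2b1, 36 bases: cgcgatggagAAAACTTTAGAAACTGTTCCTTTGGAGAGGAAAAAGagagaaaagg
A 120-base coding exon of the same gene (chr6:51464428-51464547) was held by 160 of 181 and 128 of 166 reads, 88.4% (82.9 to 92.3) and 77.1% (70.1 to 82.8), and these are the intervals that do not overlap. An unannotated 73-base exon (chr6:51461983-51462055) was held in 6 of 16 reads, 37.5% (18.5 to 61.4), and 40 of 56, 71.4% (58.5 to 81.6). It shares an end with an annotated 136-base exon (chr6:51461920-51462055), which 29 and 114 reads held. Those reads counted as neither holding nor skipping the 73-base form, so its shares leave them out. Coding exons of 63, 81, 83, 102 and 123 bases were held by over 98% of reads in both libraries.

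Further exons between 10% and 90% are given as examples. Hnrnpd, which binds AU-rich elements, held its 147-base exon (chr5:99963731-99963877, − strand) in 22 of 37 and 23 of 40 reads and its 57-base exon (chr5:99976534-99976590) in 27 of 35 and 21 of 28, so the first was at 59.5% and 57.5% and the second at 77.1% and 75%. The 141-base exon of Hnrnpab was at 29.5% and 33.3%, with 13 of 44 and 14 of 42 reads, and the 159-base exon of Hnrnpa1 at 37.8% and 27.9%. Rbm42 held a 66-base exon (chr7:30645919-30645984, − strand) in 36 of 59 and 31 of 56 reads, 61% (48.3 to 72.4) and 55.4% (42.4 to 67.6). Celf2 held a 144-base exon (chr2:6549832-6549975, − strand) in 33 of 40 and 17 of 21, 82.5% and 81%. Outside the coding region of Hnrnph2, a 45-base exon was at 40% and 32.4%. An exon of 26 bases outside the coding region of Hnrnpc was held by 12 of 20 reads in each library, 60%, and a 139-base coding exon of Hnrnph3 was at 85% and 69.2%. Of the 36 exons in this range 16 have a length that is a multiple of 3.

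A short exon of Hnrnpk was missing from the reads in a particular way. GENCODE lists an exon of 16 bases (chr13:58393853-58393868, − strand), and 0 reads in either library used a junction to it. In 141 and 108 reads the exon before it was listed as 16 bases longer, in 0 and 4 reads as 5 bases longer, and in 6 and 3 reads the neighbours were joined with nothing between. The 2 stretches of 16 bases are identical at 8 positions.
Hnrnpk, annotated exon: GGTGGTTCTGGATATG
Hnrnpk, bases listed in its place: GTTGAGTATCAATAAT
Hnrnpm has an exon of 8 bases, used by 0 and 1 reads, and its most used junction across it, with 13 and 5 reads, left the neighbour 6 bases longer. The reads themselves were not examined. Models with the neighbour 16 bases longer in Hnrnpk, or 6 bases longer in Hnrnpm, were left out of the reading of frames. This did not cover the Hnrnpk models with 5 or 0 added bases, and Hnrnpk had 6 and 7 reads with a premature stop.

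The kinases and other partners of these proteins were described from 4 further lists. Of 10 SR kinases and phosphatases, 9 were tested and 2 called, both higher in replicate 1: Srpk3, the muscle SR kinase, with 160 and 103 reads (log2 ratio −1.04), and Prpf4b with 13 and 3 (−2.35). Of 25 core spliceosome genes all were tested and 3 called higher in replicate 1, Sf3b1, Sf3b3 and Eftud2. Of 29 other RNA-binding splicing regulators listed, 28 were found in the annotation by symbol. Qki was not found under that symbol, so its level is not given. Of the 28, 23 were tested, with 2 called higher in replicate 2 (Msi2 and Rbpms) and 3 higher in replicate 1 (Tardbp, Khdrbs1 and Rbmx). Of 12 nonsense-mediated decay genes 10 were tested and 2 called higher in replicate 1, Upf1 and Upf3a. Over all genes tested the shares called were 12% for the higher level in replicate 1 and 5.53% in replicate 2, and nothing particular to these lists is read from their counts. The median log2 ratios were −0.62, −0.41, −0.54 and −0.12, beside −0.28 for all genes tested. Fxr1, an RNA-binding protein abundant in muscle, was the highest of the 28 other RNA-binding splicing regulators found, with 200 and 456 reads and a log2 ratio of 0.78, under 2-fold.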

How the data were processed

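Total RNA of 2 gastrocnemius samples was sequenced as long reads. Per the file headers and the deposited README texts, the authors deposited raw counts of reads for every transcript model in separate tables, on mm10 with GENCODE M21. Model attributes name TALON, and the aligner is not given in the sources used here. Models of spike-in RNAs were left out. CPM were computed from counts over reads in annotated genes.

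Counts of all genes with at least 10 reads were compared by an exact conditional binomial test, two-sided (the smaller tail doubled, scipy 1.17.1, Python 3.11.15), adjusted by Benjamini-Hochberg. With 1 library on each side edgeR's quasi-likelihood test has no residual degrees of freedom. For log2 ratios 0.5 reads were added. Scaling alternatives used edgeR 4.0.16 TMM and DESeq2 1.42.0 size factors (R 4.3.3). The test was checked on simulated data. Shares carry Wilson 95% intervals, for counting error only.

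Introns and coding exons came from M21. Reading frames ran from annotated starts through M21 letters. Of protein-coding models read this way 98.7% matched their annotated type, and 97.7% of nonsense-mediated decay models. A match rested only on whether the stop lay early enough before the last exon junction. The stop was not compared with the annotated stop of the same transcript. Models with a displaced short exon (under 30 bases) or junctions moved by up to 10 bases were not read.

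Genes named are the 3 highest of each family and those without reads, every gene called, the 10 highest and 5 lowest shares of extra or retained sequence at 50 reads or more, the 15 most covered skipped exons, and a set of well known regulators. Srsf9, Rbm7, Hnrnpm, further exons of other genes and the reading of frames were chosen after the data were seen. Members and lists were chosen with earlier results of these data known.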

Additional observations from a re-analysis of the deposited data

How the results depend on the processing

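No paired analysis was possible because the study has 1 group of 2 libraries and no second group to pair with. The 8 calls between the libraries became 5 under edgeR TMM factors and 5 under DESeq2 size factors, 4 of them shared with the 8, and 13 with genomic models left out, 7 shared. Of full models (annotated, or with a new combination or junction) 7 genes were called, 3 shared. The shares called over all genes in these 4 fits were 16.5%, 16.5%, 22.6% and 22.8%, beside 17.5%. With full models Hnrnpa2b1 turned to a log2 ratio of −0.59. The summed level of 2705 CPM became 2096 CPM with full models alone and ranged from 2543 to 2867 CPM when either library was left out. The share of extra or retained sequence, a mean of 7.40%, ranged from 6.15% to 8.65% when either library was left out and from 5.96% to 8.93% over the other alternatives, of which leaving out Hnrnpa2b1 was added after the data were seen. The 36 exons at 10% to 90% became 18 with annotated models alone, 26 with models of at least 2 reads, and 21 to 24 with 1 library left out. The share of premature stops, 5.70%, was 4.31% with models of at least 2 reads and 2.88% with annotated models alone, both added after the data were seen, and 5.50% to 5.89% with 1 library. The cause was not tested. Depth limits the comparisons: 31 of the 75 genes had at least 50 reads in sum, and 57.1% and 51.6% of the models rest on a single read.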
